A study of Mus musculus with 6 samples.

Results

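The genes described here are 34 targets and partners of the transcription factor ATF4, together with enzymes of serine, one-carbon and proline synthesis, in the mouse mammary carcinoma line 4T1. They were taken by gene symbol from the deposited matrix of log2 CPM values, where CPM is a gene's reads times a scaling factor of its library. A prior count is added before the log. Of the 34 symbols, 33 were present among the 11452 genes of the matrix, and Cbs, an enzyme of transsulfuration, was not measured here. The symbols were chosen by gene function together with measured values of these data, since it was already known that such genes were higher in the libraries numbered 4 and mostly lower in the knockout. Those differences are therefore given as a description, and nothing is supported with them.

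RNA was sequenced from 4T1 cell pools labelled wild type (WT) or knockout (KO) for myosin 1e (Myo1e), a class I myosin motor, with 3 libraries per genotype. The series' design text calls the libraries biological replicates, and no treatment, time or further allele is given. The sources used here do not say how the knockout was made or from how many clones the pools came. Columns of the matrix are numbered 1, 2 and 4 for each genotype, while the titles run from pool 1 to pool 3. Libraries are called KO 4, WT 4 and so on after their columns, and the sources used here do not say what the number 4 stands for.

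ATF4 is the main effector of the integrated stress response. Kinases that sense amino acid shortage, endoplasmic reticulum stress, haem lack or viral RNA phosphorylate the initiation factor eIF2alpha, which lowers general translation while the Atf4 mRNA is translated more. ATF4 then pairs with C/EBP and other leucine zipper proteins and switches on genes for amino acid synthesis and uptake, redox balance and, when stress lasts, cell death. Tumour cells draw on the same programme for serine and one-carbon units.

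The reads recovered from the matrix numbered 17772003 to 19988206 per library. Epithelial markers were measured for 14 of 14 genes, and their summed level was 4180 to 4910 CPM in KO and 4480 to 5650 CPM in WT. Of the markers of other cells, 1 of 16 leukocyte genes (summed level 4.56 to 7.94 CPM in KO and 4.03 to 7.04 CPM in WT), 2 of 12 fibroblast genes (30.0 to 71.1 CPM and 51.6 to 76.9 CPM) and 0 of 8 endothelial genes were in the matrix. Myo1e transcripts were present in every library, from 6.81 to 6.87 log2 CPM across KO and from 6.91 to 7.09 across WT, and a gene-level value does not tell whether the protein was lost. The libraries numbered 4 stood apart from the other 4 libraries in both genotypes. In bulk RNA, a level shared by all cells cannot be told apart from a higher level in some of them.

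The promoters are shown first because ATF4 dimers with C/EBP proteins bind a composite element, the C/EBP-ATF response element, whose core was searched here as TGATGNAA. RefSeq promoters of build GRCm38.p6, each 250 bases before to 50 bases after a gene's start, were matched for 31 of the 34 genes, with Fam129a under its newer symbol Niban1. Aldh1l2, Cth and Eif4ebp1 had no entry. On either strand, 9 of the 31 genes (29%) held at least one TGATGNAA, against 1219 of 27025 genes in the whole table (4.51%). The narrower form TGATGCAA, a subset of these matches, was found in 6 of the 31 genes (19.4%) and in 1.03% of all genes. The palindrome TGACGTCA, the full cAMP response element that other ATF dimers bind, was found in 1 of the 31 (3.23%), Ppp1r15a, and in 2.03% of all genes. The genes were chosen as targets and partners of ATF4, so these shares are a description and nothing is supported with them. The matches are in capitals, 5′ to 3′ on the strand of the gene, with their coordinates. A match on the other strand reads TTNCATCA. Windows that touch an annotated exon were kept to 30 bases.
Atf3, chr1:191183411-191183468, minus strand: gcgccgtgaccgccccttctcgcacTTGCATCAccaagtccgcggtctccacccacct
Jdp2, chr12:85599358-85599415, plus strand: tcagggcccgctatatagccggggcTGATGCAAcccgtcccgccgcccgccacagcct
Nupr1, chr7:126625562-126625591, minus strand: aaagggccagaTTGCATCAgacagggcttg
Trib3, chr2:152344028-152344057, minus strand: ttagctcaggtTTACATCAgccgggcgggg
Chac1, chr2:119351024-119351081, plus strand: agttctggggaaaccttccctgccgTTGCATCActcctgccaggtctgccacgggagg
Vldlr, chr19:27216809-27216838, plus strand: agcagcaatagTTGCATCAgcgctcctagc
Pycr1, chr11:120643819-120643876, minus strand: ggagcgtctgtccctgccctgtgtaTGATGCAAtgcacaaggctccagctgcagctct
Asns, chr6:7693214-7693243, minus strand: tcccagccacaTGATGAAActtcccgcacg
Pck2, chr14:55540138-55540195, plus strand: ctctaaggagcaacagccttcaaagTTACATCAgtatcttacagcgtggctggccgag
Ppp1r15a, chr7:45526269-45526305, minus strand: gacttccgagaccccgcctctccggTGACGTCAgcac

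Counted from the gene's start, the Atf3 and Nupr1 matches both lay at positions -110 to -103, and those of Pycr1 and Pck2 both at -103 to -96. The Asns match lay at -23 to -16 and the Jdp2 match, at the second of its 3 listed starts, at -33 to -26. The Chac1 match was at -193 to -186, that of Vldlr at -200 to -193 before the second of its 2 starts, and that of Trib3 within the transcript at 15 to 22. No serine or one-carbon enzyme with an entry held TGATGNAA in this window, which says only that these letters are not in it. A match is a description of the sequence and not a measured binding site.

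The first comparison set the library numbered 4 against the mean of those numbered 1 and 2, within each genotype. Transcription factors, stress effectors, proline enzymes and amino acid enzymes were all higher in KO 4 and in WT 4, most of them several-fold. Of the serine and one-carbon enzymes Aldh1l2 was far higher, Mthfd2 (2.23-fold in KO and 1.83-fold in WT) and Psph (1.97-fold and 1.77-fold) were moderately higher, and the other 4 differed little. Of the 33 measured genes, 26 were higher by a log2 difference of 1 or more in both genotypes and 0 were lower by that much, where 4.98% of the 11269 tested genes were higher and 3.85% lower. Since the genes were gathered with this difference in view, that share is printed as background and no test is given. The median difference over the 33 genes was 2.79 in KO and 2.28 in WT, and over all tested genes it was 0.0 in each. All 33 genes had a log2 CPM of 0 or more in all 6 libraries, so none was in the matrix only through the libraries numbered 4. Both libraries numbered 4 were above the other libraries of their genotype for 30 of the 33, beside 39% of all tested genes, and the plot of levels by library gives all 33.

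**Figure D1:**
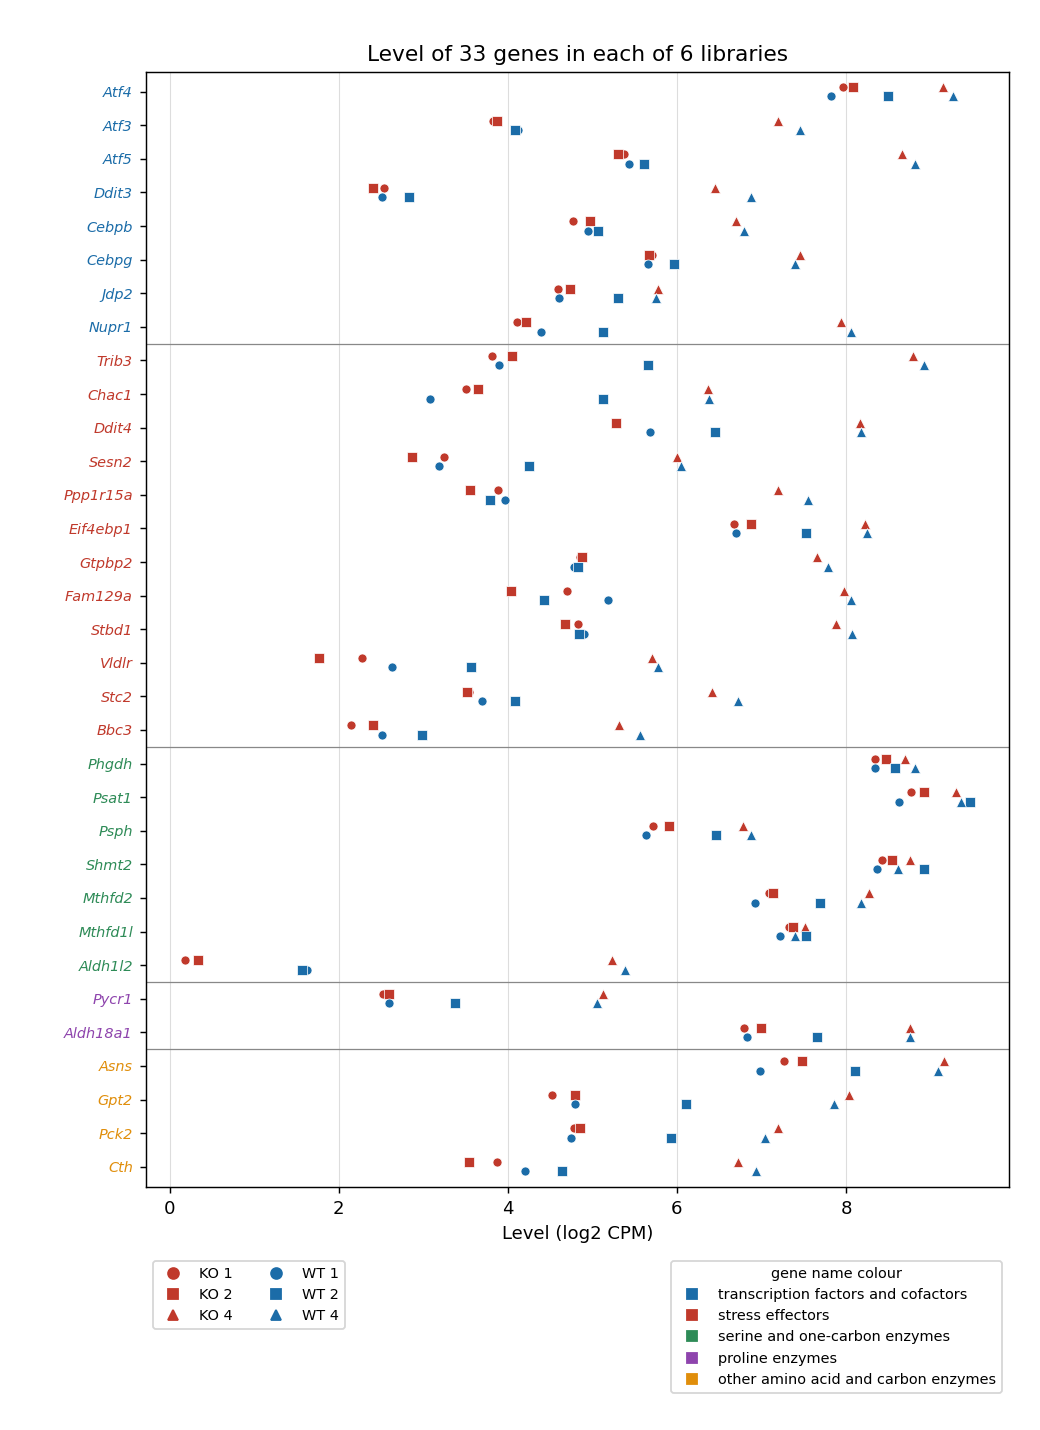
Level of each measured gene (log2 CPM, horizontal axis) in the 3 KO libraries (red) and 3 WT libraries (blue), with circles, squares and triangles for the numbers 1, 2 and 4. The triangles lie to the right of the other symbols for 30 of 33 genes, beside 35.8% of all tested genes. The blue square of WT 2 lies to the right of WT 1, KO 1 and KO 2 for 27 of 33. The share of all tested genes with that order was not counted.

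Among the 8 transcription factors and cofactors, 7 were higher by 1 or more in both genotypes, with medians of 2.58 in KO and 2.54 in WT. Atf4 itself was at 7.96, 8.08 and 9.15 log2 CPM in KO 1, KO 2 and KO 4, and at 7.82, 8.50 and 9.27 in WT 1, WT 2 and WT 4. Both libraries numbered 4 were above the other 4, by 1.13 in KO (2.20-fold) and 1.11 in WT (2.16-fold). This is a modest difference beside those of several ATF4 targets, and the level of an mRNA does not give the amount of ATF4 protein, which is set largely by translation.

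Ddit3, which encodes the pro-apoptotic factor CHOP, was at 2.54, 2.41 and 6.45 in the KO libraries and at 2.51, 2.83 and 6.87 in the WT libraries. Its libraries numbered 4 were 15.7-fold higher in KO and 18.4-fold higher in WT, with no overlap between the numbers. Atf3, a stress-induced repressor and activator of the same family, was at 3.82, 3.87 and 7.20 in KO and 4.12, 4.08 and 7.46 in WT, a 10.2-fold difference in each genotype. Atf5, a regulator of the mitochondrial stress response, was at 5.37, 5.30 and 8.66 in KO and 5.43, 5.61 and 8.82 in WT, and was higher by 3.32 in KO and 3.30 in WT (9.86-fold in WT). These 3 genes differed by nearly the same amount in both genotypes. Nupr1, a stress-induced chromatin cofactor, was higher by 3.78 in KO and 3.30 in WT. The C/EBP family members Cebpb and Cebpg, partners of ATF4 in dimers, were higher by 1.83 and 1.77 in KO and by 1.78 and 1.59 in WT. Jdp2, an AP-1 repressor, was higher by 1.12 in KO and 0.79 in WT, which placed it below the limit of 1 in WT.

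All 12 stress effectors were higher by 1 or more in both genotypes, with medians of 2.99 in KO and 2.82 in WT. Trib3, a pseudokinase that restrains ATF4 and AKT, was at 3.81, 4.05 and 8.79 in KO and at 3.90, 5.66 and 8.92 in WT. The libraries numbered 4 were 29.0-fold higher in KO and 17.6-fold higher in WT, and WT 2 lay between WT 1 and WT 4. Against WT 1 alone the WT value was 32.5-fold and against WT 2 alone 9.56-fold, so the order of KO and WT depends on which library is the base. Its range among the KO libraries was the widest of the 12.

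Ppp1r15a, which encodes the regulatory subunit GADD34 that directs eIF2alpha dephosphorylation, was at 3.88, 3.55 and 7.20 in KO and 3.97, 3.79 and 7.55 in WT, 11.2-fold and 12.7-fold higher in number 4. Fam129a (Niban), a regulator of translation under stress, was at 4.70, 4.04 and 7.98 in KO and 5.19, 4.43 and 8.06 in WT. For both genes the library numbered 2 was below that numbered 1 in each genotype. Chac1, which degrades glutathione, was at 3.50, 3.65 and 6.37 in KO and at 3.08, 5.12 and 6.38 in WT, 6.94-fold and 4.84-fold higher in number 4, where the WT value was 9.85-fold against WT 1 alone and 2.38-fold against WT 2 alone.

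Of the effectors that restrain mTORC1, Ddit4 was higher by 2.88 in KO and 2.12 in WT and Sesn2 by 2.94 and 2.33. Eif4ebp1, which encodes a repressor of cap-dependent translation, was higher by 1.44 and 1.13, the lowest values of the 12. Vldlr, a lipoprotein receptor, was at 2.28, 1.77 and 5.70 in KO and at 2.63, 3.57 and 5.78 in WT. Bbc3, which encodes the BH3-only protein PUMA and is also a p53 target, was higher by 3.04 and 2.81. Gtpbp2, a GTP-binding protein of ribosome rescue, Stbd1, a glycogen-binding protein, and the secreted glycoprotein gene Stc2 were higher by 2.79, 3.13 and 2.89 in KO and by 2.97, 3.20 and 2.83 in WT.

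The serine and one-carbon enzymes differed less. Of the 7, 1 was higher by 1 or more in both genotypes, and the medians were 0.45 in KO and 0.34 in WT. This count depends on the base. Against the libraries numbered 1 alone, Psph (1.06 in KO and 1.24 in WT) and Mthfd2 (1.18 and 1.26) also reached 1. Against those numbered 2 alone, Psph was at 0.89 and 0.42 and Mthfd2 at 1.13 and 0.49. Phgdh, the first enzyme of serine synthesis from glycolytic 3-phosphoglycerate, was at 8.34, 8.47 and 8.70 in KO and 8.34, 8.58 and 8.81 in WT, or 1.23-fold and 1.27-fold higher in number 4. Psat1, the next enzyme, was at 8.77, 8.92 and 9.30 in KO and at 8.62, 9.46 and 9.36 in WT, so that WT 2 and not WT 4 was its highest library. Psph, the last step, was higher by 0.98 and 0.83.

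Among the enzymes of mitochondrial folate metabolism, Shmt2, which splits serine into glycine and a one-carbon unit, was at 8.43, 8.54 and 8.75 in KO and 8.36, 8.92 and 8.61 in WT, a difference of 0.26 in KO and -0.03 in WT. Mthfd1l, which releases formate, differed by 0.16 and 0.02. Shmt2, Mthfd1l and Psat1 were the 3 of 33 genes whose highest library was WT 2. Mthfd2, the mitochondrial dehydrogenase and cyclohydrolase, was higher by 1.16 in KO and 0.87 in WT.

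Aldh1l2, the mitochondrial formyltetrahydrofolate dehydrogenase, differed most from the other 6. It was at 0.18, 0.34 and 5.23 in KO and at 1.63, 1.56 and 5.38 in WT, resting on 21, 21 and 780 reads and on 59, 54 and 781 reads. The libraries numbered 4 were 31.3-fold higher in KO and 13.8-fold higher in WT, and both KO 1 and KO 2 were below both WT 1 and WT 2. At so few reads the size depends on the prior, and with a pseudocount of 1 CPM the log2 differences of 4.97 in KO and 3.78 in WT became 4.16 and 3.43.

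Both proline enzymes were higher in number 4. Pycr1, which makes proline in mitochondria, was at 2.52, 2.59 and 5.12 in KO and 2.60, 3.37 and 5.05 in WT, 5.92-fold and 4.19-fold higher. Aldh18a1, which makes the precursor of proline and ornithine, was higher by 1.86 and 1.50. Among the remaining enzymes, Asns, which makes asparagine, was at 7.27, 7.48 and 9.16 in KO and 6.98, 8.11 and 9.09 in WT. Gpt2, the mitochondrial alanine transaminase, was at 4.52, 4.79 and 8.04 in KO and 4.79, 6.11 and 7.86 in WT, 10.4-fold and 5.31-fold higher (in WT 8.40-fold against WT 1 and 3.35-fold against WT 2). Pck2, the mitochondrial PEP carboxykinase, and Cth, which makes cysteine from cystathionine, were higher by 2.37 and 3.01 in KO and by 1.70 and 2.51 in WT. Against WT 1 alone the Pck2 value in WT was 2.29 and against WT 2 alone 1.11. Trib3, Chac1, Gpt2 and Pck2 were the 4 of 33 genes whose fold in WT moved by over 1.5 times with the choice of WT 1 or WT 2, and in KO 0 of 33 did so with KO 1 or KO 2. The lowest value of these 4 enzymes, 1.55 for Asns in WT, was above that of every serine and one-carbon enzyme but Aldh1l2.

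**Figure D2:**
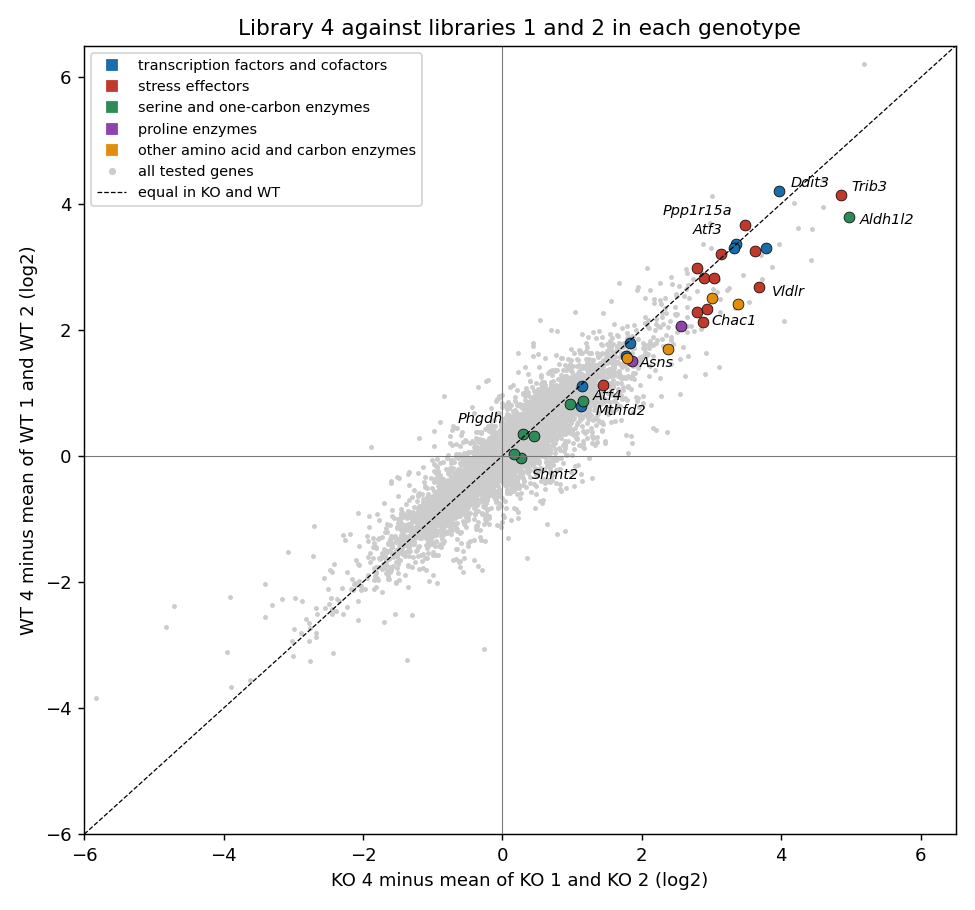
Difference of library 4 from the mean of libraries 1 and 2 (log2) in KO (horizontal axis) and in WT (vertical axis), for all tested genes (grey) and the 33 measured genes, coloured by role. The serine and one-carbon enzymes other than Aldh1l2 lie between 0.16 and 1.16 in KO, and 28 of 33 genes lie below the dashed line of equal differences, beside 47.7% of all tested genes.

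The count of 28 genes with a greater difference in KO than in WT rests on WT 2. Against the libraries numbered 1 alone it was 17 of 33 (47.8% of all tested genes), and against those numbered 2 alone 28 of 33 (47.6%).

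Differences of 3 or more in both genotypes were found for 9 of the 33 genes, beside 0.169% of all tested genes. The libraries numbered 4 also differed in the share of reads from mitochondrially encoded genes, which was 0.343% in KO 4 and 0.309% in WT 4 and 0.379% to 0.493% in the other 4. The 7 measured mitochondrially encoded genes had a median difference of -0.59 in KO and -0.71 in WT. The part of RNA quality, culture state or any step shared by these 2 libraries in the differences above was not tested.

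Further genes of the stress response were read from lists written with those earlier results known, and those named are the ones with the largest differences in number 4. Amino acid transporters were the list most like the genes above, with 7 of 11 measured genes higher by 1 or more in both genotypes, beside 4.98% of all tested genes, and medians of 1.49 in KO and 1.24 in WT. Slc7a11, the cystine importer, was at 2.96, 2.92 and 7.38 in KO and at 2.44, 4.52 and 7.08 in WT. Slc6a9, a glycine transporter, was higher by 3.97 and 3.36, the serine and alanine transporter gene Slc1a4 by 2.65 and 1.96, and Slc3a2, the heavy chain shared by several exchangers, by 1.63 and 1.50. Of 20 cytosolic tRNA synthetases, 5 were higher by 1 or more in both genotypes, among them Sars (1.48 and 1.50), Aars (1.53 and 1.32) and Lars (1.35 and 1.23), while Farsa differed by -1.17 and -1.12.

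Other lists held 0 to 2 such genes each, and they stand beside the same 4.98% of all tested genes higher and 3.85% lower by 1 or more in both genotypes. The kinases, phosphatase subunits and other regulators of eIF2alpha had 0 of 21 measured genes higher by 1 or more and medians of -0.26 and -0.37. The kinase gene Eif2ak4 (GCN2), which senses uncharged tRNA, differed by -0.67 and -0.51, and Dele1, which relays mitochondrial stress, by 0.96 and 0.76. Chaperones and degradation genes driven by ATF6 and XBP1 had 2 of 21 higher by 1 or more and a median of -0.30 in each genotype. In that list Ern1, the sensor IRE1, differed by 1.54 and 1.58 and Herpud1 by 1.45 and 1.26, while the chaperone gene Calr differed by -1.55 and -1.30.

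The other folate and glycine genes had 1 of 20 higher and 4 of 20 lower by 1 or more in both genotypes, with medians of -0.57 and -0.56. Tyms, which makes thymidylate, differed by -1.60 in KO and -1.26 in WT. The other proline and glutamate enzymes had 1 of 13 higher by 1 or more, the aspartate transaminase Got1 at 1.22 in each genotype, and medians of -0.29 and -0.41. Among p53 target genes, relevant to Bbc3 and Sesn2, 2 of 14 were higher by 1 or more and 0 of 14 lower by that much in both genotypes. The medians were -0.22 and -0.05. The 2 higher genes were Trp53inp1, by 2.98 in KO and 3.69 in WT, and Fas, by 2.31 and 1.73.

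The second comparison, and the one the series was designed for, was KO against WT. On average 32 of the 33 genes were lower in KO, beside 52.9% of all tested genes, but 0 of 33 passed the threshold of an adjusted p of 0.05 in limma's two-sided test with Benjamini-Hochberg adjustment over all genes, and the lowest adjusted p of any of them rounded to 1. Nor did any other gene pass (0% higher and 0% lower), and at an unadjusted p under 0.05 there were 0 of the 33 and 0.204% of all genes. The median difference of the 33 was -0.24, against -0.01 over all tested genes. The KO and WT libraries overlapped for each of the 33 genes, where 1.59% of all tested genes had every KO library below every WT library. For 30 of the 33 both libraries numbered 4 were above all 4 others, which alone made the genotypes overlap. For these genes the overlap does not inform on KO against WT. Mean Trib3 levels were 5.55 ± 2.81 log2 CPM for KO and 6.16 ± 2.55 for WT (SD, n = 3), a difference of -0.61 (SE 1.77). Mean Atf4 levels were 8.40 ± 0.66 and 8.53 ± 0.73 (SD, n = 3), a difference of -0.13 (SE 0.47).

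These errors are large because the libraries numbered 4 are part of each genotype's spread, and the median SE was 1.05 for the 33 genes and 0.20 for all tested genes. The column numbers paired the libraries by their deviations. With the number as a replicate block the median SE was 0.11 and 0 of the 33 passed (lowest adjusted p = 0.27 in limma), while 1 gene of the whole table did (0.00887%). At an unadjusted p under 0.05, that fit had 14 of the 33 lower and 0 higher, beside 5.08% of all tested genes lower. They were 4 transcription factors, 8 effectors, Aldh1l2 and Cth. The genes were gathered with lower levels in KO already known, and the pairing was taken from these same values. These counts are therefore a description, and nothing is supported with them.

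Within column numbers, the KO minus WT differences were unequal. In number 2, 32 of 33 genes were lower in KO, beside 50.3% of all tested genes, with a median of -0.56, and 20 of 33 were lower by 0.5 or more, beside 2.63% of all tested genes. In number 1, 20 of 33 were lower, beside 50.1%, with a median of -0.05, and 1 of 33 by 0.5 or more (4.45% of all). In number 4, 24 of 33 were lower, beside 53.3%, with a median of -0.08, and 0 of 33 by 0.5 or more (1.74% of all). Each of these differences rests on 1 library per genotype and has no replicate check. In 3 of 3 numbers 17 genes were lower in KO, beside 17% of all tested genes. In the other direction 0 were higher in 3 of 3 numbers, beside 1753 of the 11269 tested genes. The same count of 17 was reached in numbers 1 and 4 alone, beside 28.4% of all tested genes.

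**Figure D3:**
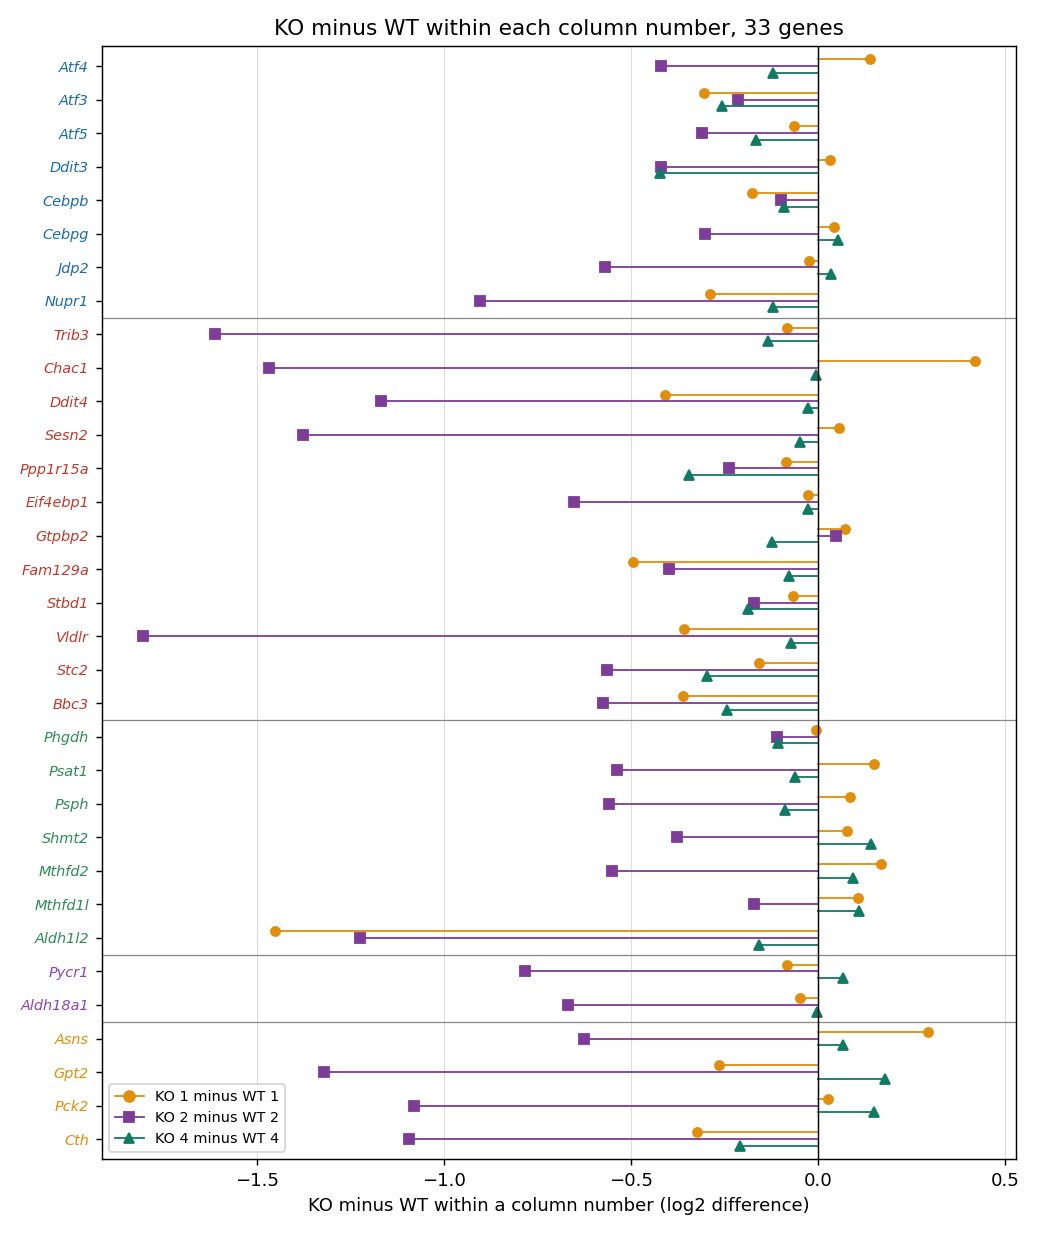
KO minus WT (log2 difference, horizontal axis) within the column numbers 1 (orange circles), 2 (purple squares) and 4 (green triangles) for each measured gene. The lowest purple value is -1.80 for Vldlr, the green values lie between -0.42 and 0.18, and Aldh1l2 has the lowest orange value at -1.45.

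By role, the medians in number 2 were -0.36 for the transcription factors, -0.61 for the effectors, -0.54 for the serine and one-carbon enzymes, -0.73 for the proline enzymes and -1.09 for the remaining enzymes. Vldlr was lower in KO 2 than in WT 2 by 1.80 on the log2 scale, at 0.286 times the WT 2 level, and Trib3, Chac1, Sesn2 and Gpt2 were at 0.327, 0.361, 0.385 and 0.401 times. In numbers 1 and 4 Trib3 differed by -0.08 and -0.13, and Chac1 by 0.42 and -0.01. The large differences of these genes in number 2 were thus not seen in the other numbers.

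Other genes had differences that varied less between the 3 numbers. Cebpb differed by -0.18, -0.10 and -0.09 in numbers 1, 2 and 4. Atf3 differed by -0.30, -0.21 and -0.26 in numbers 1, 2 and 4, and limma with the replicate block gave an SE of 0.07 (adjusted p = 0.27). Bbc3 differed by -0.36, -0.57 and -0.24, and Stc2 by -0.16, -0.56 and -0.30, each lowest in number 2. Aldh1l2 was not among these genes and differed by -1.45, -1.22 and -0.16, large in numbers 1 and 2 and small in number 4. Gtpbp2 differed by 0.07, 0.05 and -0.12 and had the mean difference nearest to 0.

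For most genes the low value of number 2 went with a high level of WT 2. WT 2 was above WT 1, KO 1 and KO 2 for 27 of the 33 genes. No share over all tested genes was counted for this order or for the orders of KO 2 given below. From WT 1 to WT 2 the median difference was 0.68, and 18 of 33 genes were higher by 0.5 or more, beside 1.85% of all tested genes. From KO 1 to KO 2 it was 0.07, and 0 of 33 were higher by that much, beside 1.85% of all tested genes. KO 2 was below KO 1 for 10 of 33 and was the lowest of the 6 libraries for 9. It was lower by 0.2 or more for 5 genes, with differences of -0.66 for Fam129a, -0.51 for Vldlr, -0.37 for Sesn2 and -0.33 for each of Ppp1r15a and Cth. The largest values in WT were 2.05 for Chac1 (4.13-fold), 1.77 for Trib3 (3.40-fold), 1.32 for Gpt2, 1.18 for Pck2, 1.13 for Asns and 1.06 for Sesn2. These are differences between single libraries and have no test, and what set WT 2 apart from WT 1 was not tested.

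The genes high in WT 2 were only in part those highest in number 4. Psat1, Psph, Mthfd2 and Shmt2 were higher in WT 2 than in WT 1 by 0.84, 0.82, 0.77 and 0.56, although in KO 4 they differed from KO 1 and KO 2 by 1.16 or less. Conversely Atf3, Stbd1, Ppp1r15a, Fam129a and Aldh1l2 were 3.13 or more higher in KO 4, while WT 2 differed from WT 1 by -0.04, -0.06, -0.18, -0.76 and -0.07. Atf4 mRNA was 0.68 higher in WT 2 than in WT 1. The transporter genes Slc7a11 and Slc6a9 were 2.08 and 1.26 higher in WT 2.

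**Figure D4:**
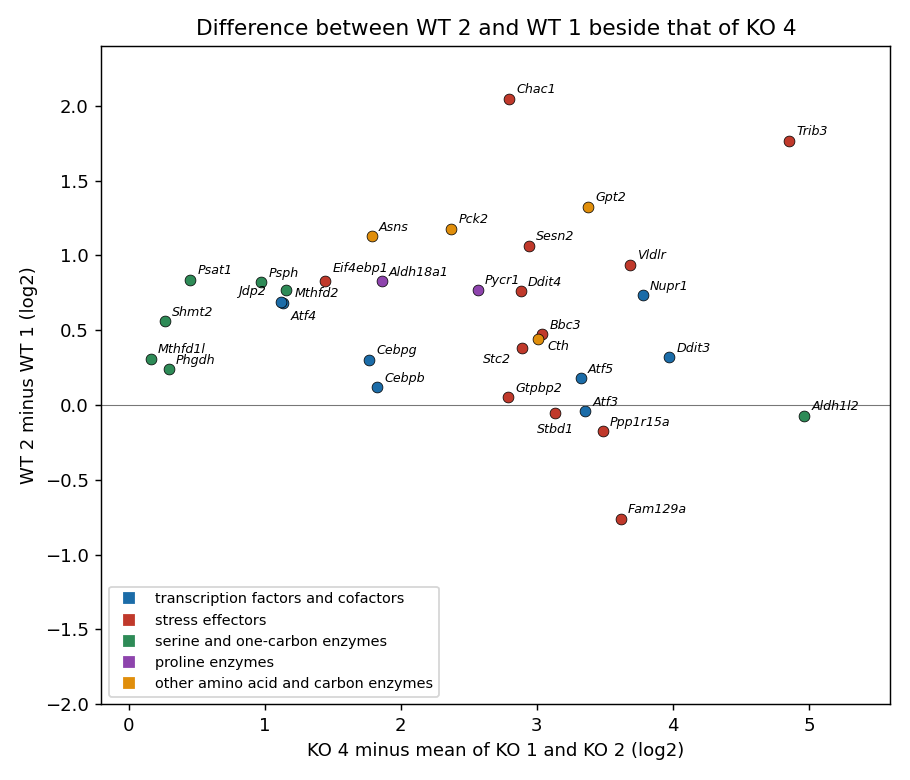
Difference of WT 2 from WT 1 (log2, vertical axis) beside the difference of KO 4 from the mean of KO 1 and KO 2 (log2, horizontal axis), which share no library, for the 33 measured genes coloured by role. Psat1 and Shmt2 lie at the left with values of 0.84 and 0.56 on the vertical axis, and Aldh1l2, Ppp1r15a and Fam129a lie at the right at -0.07, -0.18 and -0.76.

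Whether KO minus WT differed between number 4 and numbers 1 and 2 was tested as an interaction, with 2 residual degrees of freedom. None of the 33 genes passed in limma's test (0 of 33, beside 0% of all tested genes), and at an unadjusted p under 0.05 there was 1 of 33, beside 3.9% of all tested genes. With the replicate block 16 genes of the whole table passed (0.142%), again with 0 of the 33. The gene at an unadjusted p under 0.05 was Aldh1l2, whose KO minus WT difference was 1.18 higher in number 4 (SE 0.30, unadjusted p = 0.0045, adjusted p = 1 in limma), or 0.74 with a pseudocount of 1 CPM. Without WT 2 the Aldh1l2 difference was 1.22 higher in number 4, and without WT 1 it was 1.15 higher. In both of these fits a single library stands for WT in numbers 1 and 2, and the spread comes from KO 1 and KO 2 only.

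For KO against WT the further lists held no gene past the threshold either, with or without the replicate block. Their medians in number 2 were -0.23 for the 11 transporters, -0.18 for the 20 tRNA synthetases and -0.12 for the 21 ATF6 and XBP1 genes, in number 1 they were 0.06, 0.07 and 0.0, and in number 4 0.08, -0.04 and -0.14. Of the ATF6 and XBP1 genes, 21 of 21 were lower in KO on average, beside 52.9% of all tested genes. Lower in KO were 10 of 21 in number 1 (50.1% of all tested genes), 20 in number 2 (50.3%) and 18 in number 4 (53.3%). In 3 of 3 numbers 8 of 21 were lower, beside 17% of all tested genes. Xbp1, a transcription factor of the endoplasmic reticulum response, differed by -0.13, -0.31 and -0.33 in numbers 1, 2 and 4. P4ha1, a collagen prolyl hydroxylase, differed by -0.22, -0.47 and -0.13, and neither gene passed in limma's test with the block (adjusted p = 0.26 and 0.27).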

How the data were processed

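The deposited table holds log2 CPM values of 6 libraries. The tools the authors name, per the submitters' processing notes, are STAR 2.7.3a and Trimmomatic 0.39, edgeR, and Subread 1.6.4 with featureCounts, on build GRCm38. The sources used here give no annotation, strand setting or normalization, so reads of overlapping genes can be misassigned. All its genes reach 0 log2 CPM in 2 libraries or more.

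Linear values were whole multiples of a single step in each library, within a tolerance of 0.01, which gave the read numbers. A count of 0 allows up to 0.144 to 0.173 CPM (3 reads, counting error only).

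KO was compared with WT in limma 3.58.1 (R 4.3.3) on the log2 values, with a variance that follows the mean. Only genes that reached 0 log2 CPM in 3 or more of 6 libraries were tested, which kept 11269 and dropped 183, and all 33 measured members passed. An exact permutation test of 3 against 3 cannot go below p = 0.1. The interaction of genotype with number 4 was fitted likewise, on all genes. The scripts were tested on simulated data. Differences are on the scale of the authors' prior, which understates those of weakly expressed genes.

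Columns 1 and 2 were matched to the pools of the same number and columns 4 to their genotype. Deviations of same-numbered libraries from their genotype means correlated at 0.744, 0.784 and 0.921 across genes for numbers 1, 2 and 4, so the numbers were taken to pair the libraries. This comes from the values and not from a label, and libraries of unlike number also correlated (KO 1 and WT 2, 0.687, and WT 1 and KO 2, 0.617).

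The members and lists were chosen with earlier results of these data known. Named genes were all measured members and, from each further list, up to 4 genes with the largest difference in number 4 and up to 2 with the smallest p in KO against WT. Some genes that this rule names are not reported here. Other genes were chosen after their values were seen, as stated there. Alternatives were filters, pseudocounts, scalings, variance settings, the block, leaving out libraries, and, chosen after seeing the data, limma voom on recovered reads and numbers 1 and 4 only.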

Additional observations from a re-analysis of the deposited data

How the results depend on the processing

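The median KO minus WT difference of the 33 genes was -0.22 to -0.30 under every alternative that kept all numbers or the numbers 1 and 2, and -0.04 in numbers 1 and 4 only. With any 1 library left out it was between -1.19 and 0.34, since the numbers are then in unequal shares of the genotypes. The same construction moved single genes, and with 1 library left out the differences ran as follows: Aldh18a1 -0.86 to 0.26, Aldh1l2 -2.60 to 0.32, Asns -0.68 to 0.43, Atf3 -1.38 to 0.86, Atf4 -0.51 to 0.24, Atf5 -1.29 to 0.92, Bbc3 -1.41 to 0.55, Cebpb -0.73 to 0.47, Cebpg -0.66 to 0.46, Chac1 -1.28 to 0.41, Cth -1.55 to 0.29, Ddit3 -1.59 to 1.13, Ddit4 -1.49 to 0.17, Eif4ebp1 -0.72 to 0.14, Fam129a -1.53 to 0.76, Gpt2 -1.59 to 0.34, Gtpbp2 -0.93 to 0.99, Jdp2 -0.56 to 0.078, Mthfd1l -0.065 to 0.090, Mthfd2 -0.48 to 0.20, Nupr1 -1.70 to 0.66, Pck2 -1.09 to 0.26, Phgdh -0.19 to 0.040, Ppp1r15a -1.38 to 1.00, Psat1 -0.41 to 0.0060, Psph -0.53 to 0.089, Pycr1 -1.12 to 0.42, Sesn2 -1.44 to 0.32, Shmt2 -0.19 to 0.093, Stbd1 -1.19 to 0.93, Stc2 -1.30 to 0.60, Trib3 -2.23 to 0.77 and Vldlr -1.97 to 0.15. No gene of the 33 passed for KO against WT under any alternative run, and over all genes only the replicate block called any, 1 gene. The block changed no call among the 33. For the interaction, all genes gave 16 calls with the replicate block, 0 to 269 with a library numbered 1 or 2 left out and 0 to 18 among the 33. Without WT 1 or WT 2 the spread comes from KO 1 and KO 2 only, so the counts from those fits are not read as results. The interaction could not be fitted without KO 4 or WT 4.

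In numbers 1 and 4 only, these genes were higher in KO: Atf4 0.011, Cebpg 0.049, Jdp2 0.0050, Chac1 0.21, Sesn2 0.0060, Psat1 0.044, Shmt2 0.11, Mthfd2 0.13, Mthfd1l 0.109, Asns 0.18 and Pck2 0.088. Gtpbp2 was at 0.0040 with median centring, 0.0060 with quantile normalization, 0.060 in numbers 1 and 2 only and 0.029 with voom, and Mthfd1l at -0.031 in numbers 1 and 2 only. The median number 4 difference in KO was 2.75 with a pseudocount of 1, 2.77 with median centring and 2.86 with quantile normalization, and in WT it was 1.74 to 2.73 against WT 2 or WT 1 alone. The count of genes higher by 1 or more in both genotypes was 26 or 27 with other pseudocounts and scalings, 29 against the libraries numbered 1 and 23 against those numbered 2. The count lower in 3 of 3 numbers was 16 or 17. Depth limits Aldh1l2 most, which rests on 21 reads in KO 1 and in KO 2.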

Other observations

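Beyond the genes described above, 10 tested genes were higher in number 4 by 3 or more in both genotypes, and they are named here after their values were seen. They included the cystine and glycine transporter genes Slc7a11 and Slc6a9, and Gadd45a, a growth arrest gene that stress induces, at 3.48, 3.24 and 7.60 log2 CPM in KO and 4.09, 4.14 and 7.73 in WT. Angptl6, a secreted angiopoietin-like protein gene, was at -0.37, 0.20 and 5.10 in KO and at -0.36, -1.41 and 5.33 in WT, 6.21 higher in WT 4. The metallothionein gene Mt2 was at 4.08, 3.45 and 6.77 in KO and 3.74, 2.09 and 7.04 in WT, so that WT 2 was its lowest library. Acot2, a mitochondrial acyl-CoA thioesterase gene, and the kinesin gene Kif21b were 4.38 and 4.00 higher in WT 4. The others were Slc24a3, Trim46 and Klhl33. Outside number 4, Angptl6 reached 0 log2 CPM in KO 2 only and Klhl33 in WT 2 only (0.17). Both therefore passed the filter only through the libraries numbered 4, and the size of their differences depends on the prior.

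Of the 20 genes with the highest WT 2 minus WT 1, 6 were among the 33 genes above, which are 33 of the 11269 tested genes. The 33 were gathered with values of these data known, so this count is a description. Outside them, the 10 highest were, in order, Slc7a11, Fut1, Kcnab3, Ptger1, Snx29, Mgat3, Slc6a9, Bend7, 5430405H02Rik and Herpud1, named after their values were seen. Fut1 was at -1.10 in WT 1 and 0.87 in WT 2. Herpud1 was at 4.90 in WT 1 and 6.07 in WT 2 and at 5.09 and 5.36 in KO 1 and KO 2. These are single libraries with no replicate check.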
